A study of Mus musculus with 32 samples.

Results

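The change described here is that of wild-type bone marrow-derived macrophages (BMDM-WT) between 1 h and 5 h of exposure to lipopolysaccharide (LPS), the outer membrane component of Gram-negative bacteria. It was read from 8 of the 32 samples of the study, the 4 libraries of BMDM-WT at 1 h and the 4 at 5 h, which were chosen by their labels alone. The macrophages were grown for 7 days in L929-conditioned medium from bone marrow of male C57Bl6/J mice aged 6 to 12 weeks, and were given 100 ng/ml LPS. The other samples were BMDM-WT at 0 h (no LPS) and 18 h and BMDM-Nur77-KO at the same 4 times, again with 4 libraries a group. BMDM-Nur77-KO came from mice with a whole-body deletion of Nr4a1, the gene of the nuclear receptor Nur77, made with a CMV-driven Cre that the final mice no longer carried, and BMDM-WT came from their wild-type littermates. The 4 replicates of a group were separately seeded wells. How many animals they came from was not stated, so that p-values measure the spread between these samples, which may be technical.

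LPS binds TLR4 and sets off waves of transcription. The first wave needs no new protein: existing NF-kB, MAP kinase-activated factors and chromatin poised for activation let immediate-early genes such as Fos and Egr1, early cytokines such as Tnf, and feedback inhibitors such as Nfkbia rise and often fall again. The later wave needs proteins made in the first, among them interferon-beta, which acts through its receptor and the factor complex ISGF3 on the interferon-stimulated response element (ISRE) of antiviral genes, and new transcription factors that let genes such as Il6, Il12b and Nos2 be transcribed.

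Library totals, over 1 transcript per gene, ran from 8742362 to 13374608 counts at 1 h and from 10206035 to 11535789 at 5 h, within a range of 8742362 to 15780926 over the 32 libraries. The replicates of BMDM-WT correlated at r = 0.992 to 0.996 within a time (log2 scale, across genes, which are not independent replicates), and every pair differed by more than counting noise. One library of the other genotype, BMDM-Nur77-KO 5 h replicate 1, stood apart from its group (r = 0.959 to 0.981), and the counts and shares that rest on it are given with and without it. Replicate 2 of that group correlated with replicates 3 and 4 at r = 0.991 and 0.989, below the 0.994 between replicates 3 and 4. Leaving out replicate 1 therefore does not remove all of the spread in this group. Levels are given as CPM, the count of a gene relative to the TMM-scaled size of its library. Nr4a1, the deleted gene, was at 19.3, 15.4, 25.6 and 18.1 CPM in BMDM-WT at 0 h and at 4.91, 4.60, 4.43 and 6.98 CPM in BMDM-Nur77-KO. After 1 h of LPS it reached 242, 179, 146 and 193 CPM in BMDM-Nur77-KO, below every BMDM-WT library of that time, and its row does not separate deleted from kept exons. Macrophage markers were high at both times, with a summed level over 8 markers of 16318 to 18620 CPM at 1 h and 16538 to 17980 CPM at 5 h. Lyz2 weighed most in this sum (8856 to 10591 CPM at 1 h). Of the 8, 2 were called higher and 0 lower. Fcgr1 went from 150 to 187 CPM at 1 h to 941 to 1007 CPM at 5 h, and Mertk from 122 to 145 CPM to 357 to 379 CPM. Markers of other cell types are given with the last results.

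The promoters of 4 genes are shown as examples of windows that hold a motif searched for here: Fos and Cxcl2 fell from 1 h to 5 h, Ifit1 and Isg15 rose. They do not stand for all genes of their direction. The window of Il12b, which rose, held none of the letters searched for. Sites that differ from these letters were not searched for, so this does not show that the promoter lacks such elements. The NF-kB letters shown for Cxcl2 were rare in both directions, in 4 of 1435 windows of genes that fell and 12 of 1247 of those that rose. The windows run from 250 bases before to 50 bases after the start of the RefSeq gene in GRCm38.p6 and are written 5′ to 3′ on the strand of the gene. Capitals mark, for Fos, a TATA box (TATAAA), for Cxcl2, an NF-kB motif (GGGANTTTCC), and, for Ifit1 and Isg15, ISRE motifs (GAAANNGAAA, on either strand). Fos lies on the plus strand (chr12:85473640-85473939), with its TATA box from position -33 to -28 relative to the start. Cxcl2 is on the plus strand (chr5:90903649-90903948), and its NF-kB motif lies from -97 to -88. Ifit1 is on the plus strand (chr19:34640639-34640938), with ISRE motifs from -104 to -95 and from -85 to -76. Isg15 is on the minus strand (chr4:156200769-156201068), with 3 ISRE motifs that overlap one another between -78 and -57. 
Fos: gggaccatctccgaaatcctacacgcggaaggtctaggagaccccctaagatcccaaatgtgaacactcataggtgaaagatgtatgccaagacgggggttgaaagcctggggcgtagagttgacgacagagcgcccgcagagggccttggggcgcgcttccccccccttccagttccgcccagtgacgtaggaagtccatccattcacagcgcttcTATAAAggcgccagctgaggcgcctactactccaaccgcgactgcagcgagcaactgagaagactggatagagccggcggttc
Cxcl2: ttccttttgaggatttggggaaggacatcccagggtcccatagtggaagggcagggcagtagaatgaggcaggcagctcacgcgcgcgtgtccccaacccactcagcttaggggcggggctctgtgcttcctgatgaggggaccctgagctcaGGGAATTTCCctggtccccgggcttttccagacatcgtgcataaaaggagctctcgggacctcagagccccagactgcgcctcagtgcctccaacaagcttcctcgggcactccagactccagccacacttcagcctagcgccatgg
Ifit1: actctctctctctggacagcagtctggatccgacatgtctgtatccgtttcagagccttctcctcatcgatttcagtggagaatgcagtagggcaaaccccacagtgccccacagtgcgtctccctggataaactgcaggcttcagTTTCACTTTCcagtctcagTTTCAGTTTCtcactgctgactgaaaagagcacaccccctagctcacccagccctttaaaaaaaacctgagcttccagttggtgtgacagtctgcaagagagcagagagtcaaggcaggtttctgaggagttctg
Isg15: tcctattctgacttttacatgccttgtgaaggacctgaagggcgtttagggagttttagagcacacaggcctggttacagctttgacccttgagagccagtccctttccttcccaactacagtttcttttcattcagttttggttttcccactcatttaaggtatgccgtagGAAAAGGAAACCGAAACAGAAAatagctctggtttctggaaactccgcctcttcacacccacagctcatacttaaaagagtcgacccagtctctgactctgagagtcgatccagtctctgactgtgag

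In BMDM-WT, 1588 of 11286 tested genes were higher at 5 h than at 1 h (14.1%) and 1823 were lower (16.2%), where a gene had to pass 0.05 after Benjamini-Hochberg adjustment of edgeR's quasi-likelihood p and to change by more than 1 on the log2 scale. Without a limit on size, 3254 genes rose and 4055 fell. The rises reached further: 376 genes had a log2 fold change over 3 and 136 over 5, against 253 genes below -3 and 27 below -5. The median log2 fold change was 1.90 among the genes that rose, -1.66 among those that fell and -0.08 over all tested genes. The CPM values of the 4 and 4 libraries did not overlap for 7514 genes (66.6%), among them 1570 of the genes that rose and 1777 of those that fell. The first principal component of the 8 libraries, which separated the times, held 93.9% of their variance, and the second held 1.58%.

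The genes that rose took up a mean of 10.8% of the counts of a library at 1 h and 39.1% at 5 h, while those that fell went from 11.7% to 2.49%. Before LPS, these shares were 9.59% and 9.47%, and at 18 h they were 29.2% and 4.92%. Because so much of the library changed hands, the scaling matters: with library totals in place of TMM factors, the median of all genes moved from -0.08 to -0.56, and 24.7% of the calls instead of 46.6% were rises (1088 higher, 3325 lower). Changes below are relative to the TMM scaling. Counts of list members stand beside 14.1% higher and 16.2% lower over all tested genes, and with library totals beside 1088 and 3325 of 11286. Total RNA per cell was not measured, and in bulk samples fewer cells of a type and less RNA per cell cannot be told apart.

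**Figure D1:**
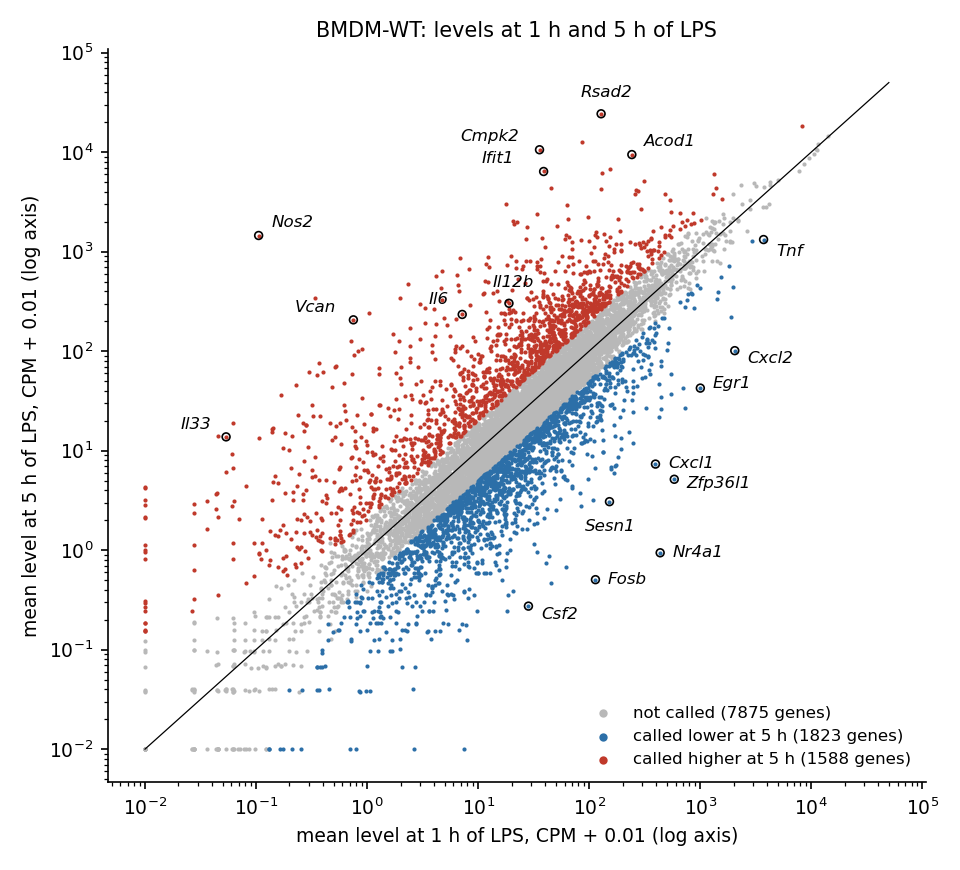
Mean CPM + 0.01 of each of the 11286 tested genes in BMDM-WT at 1 h (x axis, log scale) and at 5 h (y axis, log scale), with the 1588 genes that rose and the 1823 that fell in colour. The genes that rose reach further from the diagonal, and Rsad2, Cmpk2 and Ifit1 went from means of 128, 35.7 and 38.9 CPM to 24280, 10564 and 6387 CPM.

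Immediate-early transcription factors mostly fell from 1 h to 5 h. Of 34 tested members of a list of 35, 21 were lower at 5 h and 5 were higher, with a median log2 fold change of -1.70 against -0.08 over all genes. Fos, a subunit of the AP-1 dimer, was at 418, 489, 400 and 385 CPM at 1 h and at 49.8, 45.5, 46.2 and 46.4 CPM at 5 h (log2 fold change -3.17 ± 0.11 SE, adjusted p = 7.8e-22). Its 1 h libraries all stood far above those of 5 h, and 11.1% of the 1 h level was left. Fosb, a further AP-1 subunit, went from 127, 141, 78.5 and 109 CPM to 1.14, 0.488, 0 and 0.354 CPM, near the detection floor (-7.82 ± 0.28 SE, adjusted p = 6.3e-21). Egr1, a zinc-finger factor of the serum response, fell from 951, 1084, 998 and 978 CPM to 40.9, 42.4, 42.5 and 44.1 CPM (-4.56 ± 0.16 SE, adjusted p = 4.9e-21). In each case every 1 h library lay above every 5 h library. Egr2, its paralog, fell by 3.87 and Junb, another AP-1 subunit, fell by 1.69 on the log2 scale.

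Nr4a1 itself showed the deepest fall of the list. Its level was 483, 484, 358 and 420 CPM at 1 h and 0.796, 0.977, 0.886 and 1.06 CPM at 5 h, so that 0.213% was left (log2 fold change -8.86 ± 0.25 SE, adjusted p = 2.1e-23). At 5 h this was below the level before LPS (19.6 CPM ± 4.33 SD, n = 4). Not every early factor fell. Klf6, a Krüppel-like factor, was at 1585, 1687, 1578 and 1590 CPM at 1 h and at 1902, 1778, 1891 and 2030 CPM at 5 h (0.24 ± 0.14 SE, adjusted p = 0.12). Atf3, a stress-induced repressor, and Irf1, an interferon regulatory factor, had log2 fold changes of 0.40 and 0.20 and were not called either. The members that rose were Batf, Batf3, Mafk, Cebpd and Id1. Batf, an AP-1 family member that pairs with interferon regulatory factors, went from 1.91, 2.25, 1.87 and 1.25 CPM to 31.9, 34.2, 34.3 and 31.8 CPM (4.15 ± 0.17 SE, adjusted p = 9.8e-20). It had been at 1.67, 1.55, 2.72 and 2.97 CPM at 0 h, so it had not risen by 1 h.

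Feedback inhibitors moved in both directions. Among 21 genes that restrain NF-kB or shorten mRNA life, 8 were lower, 6 were higher and 7 were not called (median -0.71). Changes in the first hour differed within each direction: among those that fell, the log2 change from 0 h to 1 h was 1.87 for Zfp36l1 but 0.04 for Zfp36l2, its paralog, and among those that rose it was 3.43 for Traf1 but 0.07 for Tnip2, a partner of A20. Zfp36l1, which binds AU-rich elements and promotes mRNA decay, fell from 554, 680, 514 and 589 CPM to 4.77, 5.86, 5.10 and 4.84 CPM (-6.83 ± 0.17 SE, adjusted p = 8.0e-25), the deepest fall of this list. Zfp36, or tristetraprolin, fell less and kept 39.5% of its 1 h level (-1.34 ± 0.08 SE, adjusted p = 1.5e-15). Nfkbia, which holds NF-kB in the cytoplasm, stood at 1556, 1542, 1493 and 1418 CPM at 1 h and at 756, 777, 763 and 777 CPM at 5 h. The groups did not overlap, yet the log2 fold change of -0.97 ± 0.07 SE stayed inside the limit of 1, as did that of Tnfaip3, the ubiquitin-editing enzyme A20 (-0.71 ± 0.06 SE). With library totals both passed it, at -1.45 and -1.19. Traf1, an adaptor of TNF receptors, rose from 19.6, 23.3, 17.6 and 18.7 CPM to 213, 204, 214 and 203 CPM (3.39 ± 0.16 SE, adjusted p = 7.4e-18). The other members that rose were Nfkbib, Tnip1, Tnip2, Tnip3 and Irak3. With library totals, 2 of this list were higher instead of 6, and 12 were lower, beside 1088 and 3325 of all 11286 tested genes.

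The MAP kinase phosphatases, which switch off the kinases upstream of the immediate-early genes, fell in 7 of 11 members and rose in 2, with a median of -1.92. Dusp1 fell from 1411, 1541, 1375 and 1285 CPM to 328, 332, 335 and 333 CPM (-2.08 ± 0.09 SE, adjusted p = 1.0e-18). Dusp5, which acts on ERK in the nucleus, kept 4.07% of its 1 h level, and Dusp8, which acts on JNK and p38, kept 4.03%. Dusp16, with the same targets, rose from 38.3, 42.2, 40.0 and 42.3 CPM to 111, 121, 131 and 120 CPM (1.57 ± 0.09 SE, adjusted p = 2.5e-16). Dusp10 was the other that rose, and with library totals 1 of the list remained higher.

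NF-kB subunit genes moved the other way from Nfkbia. The list of 6 also counts Bcl3, an IkB family protein and not a subunit. Of the 6, 5 rose (Nfkb1, Nfkb2, Rela, Relb and Bcl3), none fell, and the median was 1.62. Nfkb1, which encodes p105 and p50, was at 144, 141, 140 and 132 CPM at 1 h and at 912, 958, 998 and 921 CPM at 5 h (2.77 ± 0.08 SE, adjusted p = 7.1e-23). Nfkb2, the precursor of p52, rose by a log2 fold change of 2.53 and Rela, the main transactivating subunit, by 1.31. With library totals Rela was at 0.82 and 3 of the 6 were called.

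Toll-like receptor signalling genes rose in 15 of 27 and fell in 1 (median 1.12), and 8 were higher and 2 lower with library totals. Nod1, a cytosolic sensor of peptidoglycan fragments outside the Toll-like receptor family, went from 6.52, 7.16, 6.54 and 5.20 CPM to 213, 209, 214 and 201 CPM (5.03 ± 0.16 SE, adjusted p = 2.1e-22). Casp4, the cytosolic LPS sensor known as caspase-11, rose by 3.09 and Myd88, the adaptor of most Toll-like receptors, reached 4.29 times its 1 h level. Tlr13, a sensor of bacterial ribosomal RNA, fell from 525, 493, 514 and 513 CPM to 125, 121, 124 and 117 CPM (-2.07 ± 0.08 SE, adjusted p = 1.4e-20). Tlr4, the LPS receptor, was not called (-0.49), nor was its co-receptor Cd14 (0.33) or the inflammasome gene Nlrp3 (0.33).

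Cytokine genes divided almost evenly. Of 29 tested members of a list of 30, 13 were higher at 5 h and 11 were lower, with a median of 0.84. Tnf fell from 3707, 3681, 3710 and 3790 CPM to 1306, 1317, 1346 and 1319 CPM (-1.49 ± 0.12 SE, adjusted p = 4.9e-12), which left it among the 3 most abundant transcripts of the list (807 RPKM, that is CPM per kilobase of transcript, a scale that allows genes of different length to be compared). Il10, which encodes an anti-inflammatory cytokine, fell from 223, 230, 174 and 203 CPM to 37.0, 27.1, 29.5 and 36.8 CPM (-2.67 ± 0.12 SE, adjusted p = 3.7e-18). Csf2, the gene of GM-CSF, went from 27.6, 29.9, 25.2 and 30.9 CPM to 0, 0, 0.111 and 0.944 CPM (-6.71 ± 0.37 SE, adjusted p = 2.9e-14), so that 2 of the 5 h libraries held no count. Tnfsf9, the ligand of the costimulatory receptor 4-1BB, fell by 4.78 on the log2 scale. Ifnb1, which encodes interferon-beta, was listed at 0 in every BMDM-WT library at 0 h. It stood at 22.8, 19.7, 18.9 and 20.2 CPM at 1 h. At 5 h it was at 4.77, 4.64, 3.99 and 2.71 CPM (-2.34 ± 0.16 SE against 1 h, adjusted p = 1.4e-12), and the groups did not overlap.

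Among the cytokines that rose, Il6 went from 8.93, 8.78, 3.94 and 7.08 CPM to 248, 208, 222 and 257 CPM (5.03 ± 0.23 SE, adjusted p = 5.6e-16). Il12b, the p40 subunit of IL-12 and IL-23, went from 19.8, 22.2, 14.8 and 18.9 CPM to 325, 302, 307 and 275 CPM (4.00 ± 0.12 SE, adjusted p = 2.9e-23). Il27, a subunit of the cytokine IL-27, rose from 6.66, 5.62, 4.74 and 5.41 CPM to 138, 140, 144 and 150 CPM (4.67 ± 0.24 SE, adjusted p = 4.8e-17). For all of these, each 5 h library lay above each 1 h library by more than 10 times. Il23a, which pairs with Il12b in IL-23, went the opposite way and kept 5.81% of its 1 h level (-4.08 ± 0.27 SE, adjusted p = 9.3e-13). Il33, an alarmin with at most 3 counts in every 1 h library, was at least 58.7-fold higher at 5 h, taking 3 counts per library as the floor. Il1rn, the IL-1 receptor antagonist, rose by 2.63. The interleukin-1 genes were not called. Il1b was at 1534, 1373, 1085 and 1318 CPM at 1 h and 1954, 2022, 1988 and 1982 CPM at 5 h (0.58 ± 0.13 SE, adjusted p = 3.2e-04). Il1a had a log2 fold change of 0.97 ± 0.12 SE, just inside the limit. It passed the limit with DESeq2 (1.01), with DESeq2 size factors (1.01), with the 8 libraries alone (1.02), with a replicate block (1.02), without BMDM-WT 1 h replicate 4 (1.02) and without BMDM-WT 5 h replicate 2 (1.01), so that its call turned on these choices.

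Chemokine genes mostly rose. Of 18 tested members of a list of 19, 13 rose and 2 fell, both of the latter ligands of the neutrophil receptor CXCR2, and the median was 2.34. Cxcl2 fell from 2016, 2057, 1988 and 2134 CPM to 90.3, 90.3, 109 and 115 CPM (-4.34 ± 0.09 SE, adjusted p = 2.4e-26). Cxcl1 fell from 393, 417, 354 and 419 CPM to 5.23, 5.37, 8.86 and 9.79 CPM (-5.75 ± 0.24 SE, adjusted p = 2.7e-19). A further CXCR2 ligand, Cxcl3, was among those that rose. Cxcl10, a ligand of CXCR3 on activated T cells, rose from 161, 155, 142 and 163 CPM to 6672, 6666, 6844 and 6867 CPM (5.44 ± 0.10 SE, adjusted p = 3.2e-27). Ccl5, also called RANTES, rose from 23.4, 22.2, 16.8 and 21.0 CPM to 1882, 1998, 1913 and 1790 CPM (6.51 ± 0.23 SE, adjusted p = 3.9e-21). Cxcl9 and Cxcl11, the other CXCR3 ligands, rose by log2 fold changes of 6.98 and 7.41. Ccl3, a macrophage inflammatory protein already induced at 1 h, rose by 1.48 with TMM and by 0.99 with library totals.

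**Figure D2:**
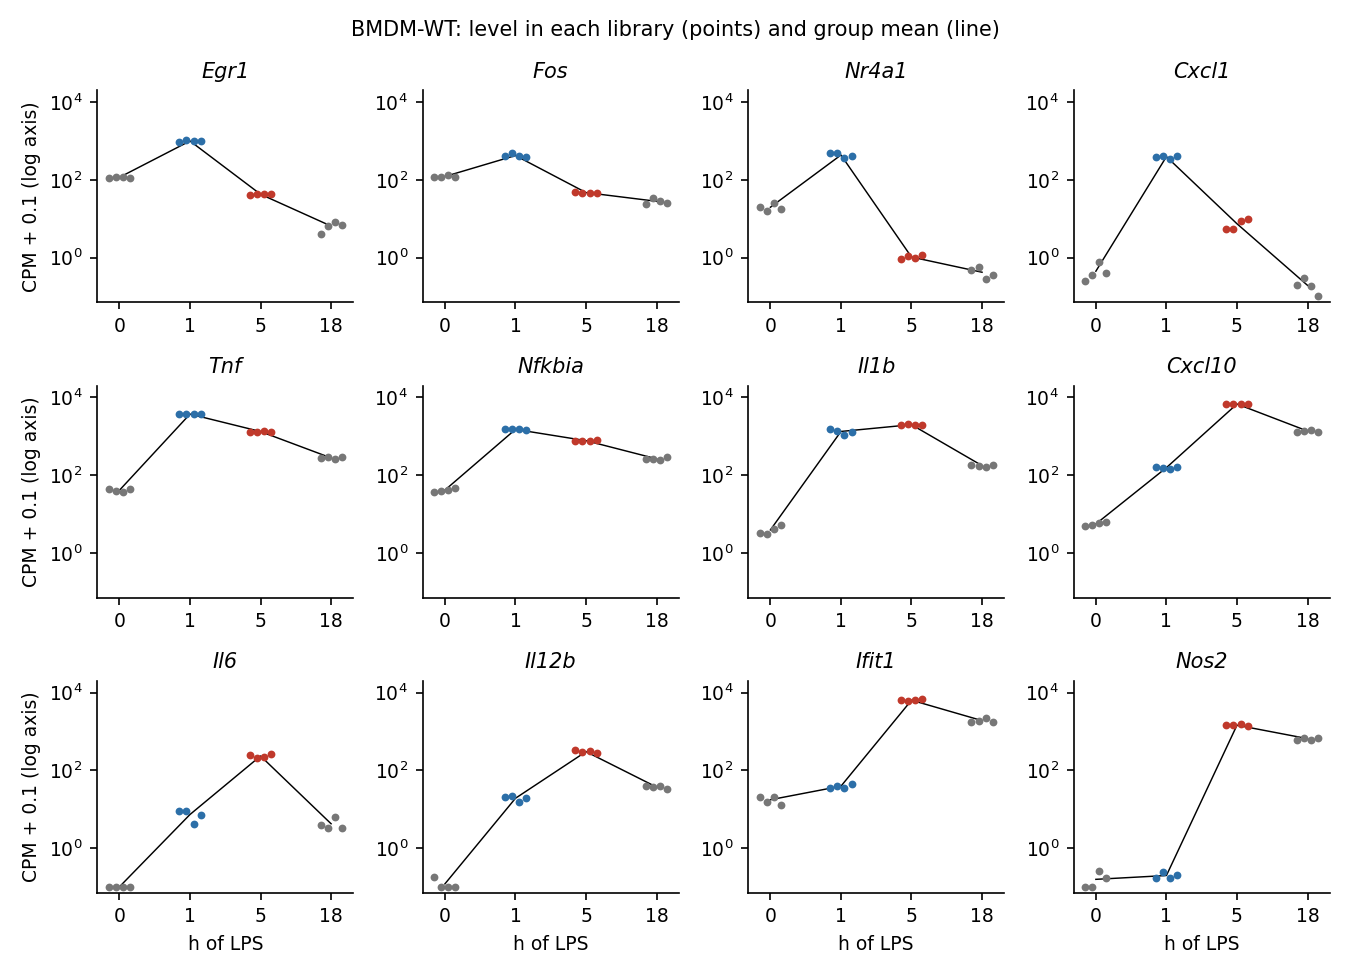
CPM + 0.1 (y axis, log scale) of 12 genes in each of the 4 BMDM-WT libraries (points) at 0, 1, 5 and 18 h of LPS (x axis, not to scale in time), with lines through the group means. Egr1, Fos, Nr4a1, Cxcl1, Tnf and Nfkbia are highest at 1 h, and Il1b, Cxcl10, Il6, Il12b, Ifit1 and Nos2 at 5 h.

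All 35 type I interferon-stimulated antiviral genes were higher at 5 h, with a median log2 fold change of 4.30. Their median change from 0 h to 1 h was -0.09, a comparison that shares the 1 h libraries. The gene lists were chosen with earlier results of these data known, so counts of their members describe the lists and are no test. Rsad2, which encodes the antiviral enzyme viperin, had the highest 5 h level of the list per length (6420 RPKM). It went from 131, 138, 112 and 132 CPM to 24151, 23401, 24464 and 25104 CPM (7.57 ± 0.17 SE, adjusted p = 8.5e-26). Cmpk2, a mitochondrial nucleotide kinase and the neighbour of Rsad2, had the largest change of the list, from 37.4, 39.7, 29.0 and 36.7 CPM to 10776, 10140, 10494 and 10845 CPM (8.21 ± 0.16 SE, adjusted p = 9.9e-27). Ifit1, which binds viral RNA that lacks cap methylation and whose promoter is shown above, went from 35.4, 39.6, 36.0 and 44.5 CPM to 6419, 6132, 6336 and 6660 CPM (7.36 ± 0.17 SE, adjusted p = 9.5e-26). For these 3 genes every 5 h library stood more than 100 times above every 1 h library.

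Isg15, a ubiquitin-like modifier, rose from 27.5, 25.9, 24.1 and 22.3 CPM to 692, 692, 658 and 644 CPM (4.75 ± 0.16 SE, adjusted p = 1.5e-21). Mx1, a dynamin-like GTPase, rose by 7.39, Ifit2, a further IFIT protein, by 7.21 and Oasl1, a translational regulator of Irf7, by 7.08 on the log2 scale. A transcription factor of the list rose too. Irf7, the regulator of later interferon genes, went from 19.0, 19.8, 15.7 and 17.5 CPM to 739, 695, 739 and 745 CPM (5.34 ± 0.15 SE, adjusted p = 7.4e-24). Ifit3 and Ifit3b, Tgtp1 and Tgtp2, and several Oas and Gbp genes have close copies in the genome, so their separate counts are uncertain.

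Interferon-inducible GTPases, which attack the membranes around intracellular microbes, rose in all 16 members with a median of 5.20. Gbp5 went from 48.4, 47.0, 42.6 and 45.0 CPM to 4256, 4294, 4503 and 4338 CPM (6.57 ± 0.23 SE, adjusted p = 2.3e-21). Gbp4 rose by 7.06, Gbp2 by 5.05 and Irgm1, a regulator of the family, by 4.51. Antigen presentation genes rose in 11 of 22 and none fell (median 1.11). Cd40, a costimulatory receptor, went from 61.8, 54.4, 47.7 and 42.7 CPM to 1805, 1830, 1768 and 1754 CPM (5.11 ± 0.14 SE, adjusted p = 1.1e-23), and Cd274, which encodes the checkpoint ligand PD-L1, rose by 3.87. The most abundant members per length, B2m (4427 RPKM at 5 h), the light chain of class I molecules, and H2-D1 (1143 RPKM), a class I heavy chain, had log2 fold changes of 0.94 and 0.58 and were not called.

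Of 19 genes of nitric oxide, itaconate and prostaglandin synthesis, 12 rose and 2 fell, with a median of 1.49. Nos2, the inducible nitric oxide synthase, had the largest bound on its fold of all genes with at most 3 counts in each 1 h library. It was at 0.0709, 0.140, 0.0667 and 0.104 CPM at 1 h, against 1456, 1477, 1526 and 1350 CPM at 5 h. With 3 counts per library as the floor, it was at least 6207-fold higher. Slc7a2, which imports arginine, the substrate of Nos2, rose by 5.51, and Ass1, which regenerates arginine, rose by 3.38. Acod1, the enzyme that makes itaconate, had begun to rise by 1 h (5.99 CPM at 0 h). It went from 263, 245, 201 and 261 CPM to 9292, 9400, 9692 and 9401 CPM (5.28 ± 0.17 SE, adjusted p = 2.2e-22). Ptgs2, the inducible cyclooxygenase COX-2, rose by 1.05 ± 0.17 SE (adjusted p = 2.5e-06), which was 0.97 without BMDM-WT 1 h replicate 3, 0.98 without BMDM-WT 5 h replicate 4 and 0.57 with library totals, all below the limit. Ptgs1, the constitutive form COX-1, fell by 1.34.

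Secondary antimicrobial and acute-phase genes rose in 16 of 20 members, none fell, and the median was 2.89. Saa3, an acute-phase protein, went from 6.95, 6.60, 6.01 and 6.56 CPM to 480, 461, 439 and 470 CPM (6.15 ± 0.13 SE, adjusted p = 4.0e-26) and reached 5804 CPM at 18 h. Lcn2, which binds bacterial siderophores, was still low at 27.7, 29.1, 22.9 and 23.1 CPM at 5 h, from 1.84, 1.90, 1.20 and 1.98 CPM (3.90 ± 0.20 SE, adjusted p = 3.5e-17). Mmp13, a collagenase, rose by 5.54 to 6111 CPM ± 304 SD (n = 4), and Serpina3g, a serine protease inhibitor, by 7.65. The IL-10 and STAT3 feedback list rose in 7 of 13 and fell in 1 (median 1.29), or in 5 and 2 with library totals. Socs1, an inhibitor of cytokine receptor kinases, went from 1.63, 0.913, 1.33 and 1.25 CPM to 75.5, 70.1, 64.0 and 59.9 CPM (5.70 ± 0.43 SE, adjusted p = 4.2e-13). Socs3, its relative, was high at 1 h already and rose by 1.29, or by 0.80 with library totals. Stat3 rose by 2.70 and Tnfrsf1b, the TNF receptor 2, by 1.89, while Il7r, the IL-7 receptor, fell by 1.43.

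Largest among all falls were those of Nr4a1, Zfp36l1, Cxcl1 and Sesn1, and largest among the rises those of Cmpk2, Vcan and AA467197, among genes called with a mean RPKM over 10 in the higher group and more than 3 counts in every library of the lower. Vcan, an extracellular matrix proteoglycan, went from 0.709, 0.421, 0.801 and 1.04 CPM to 195, 193, 238 and 199 CPM (8.14 ± 0.28 SE, adjusted p = 1.7e-21). AA467197, the mouse gene of a small protein also known as Nmes1, rose by 7.86, and Tnfsf10, the death ligand TRAIL, by 7.44. Genes with large falls differed in their level before LPS. Irs2, an insulin receptor substrate, stood at 9.91 CPM at 0 h, 85.1, 87.3, 81.3 and 84.5 CPM at 1 h and 1.59, 2.20, 4.21 and 3.07 CPM at 5 h. Sesn1, a stress-responsive regulator of mTORC1, had 210 CPM at 0 h. It went from 164, 157, 141 and 147 CPM to 2.50, 3.66, 2.77 and 3.30 CPM between 1 h and 5 h (-5.64 ± 0.13 SE, adjusted p = 8.5e-26). Arhgap19, a GTPase-activating protein, Rasgrp3, an activator of Ras, and Mtss1, an actin-binding protein, overlapped between 0 h and 1 h and fell by 5.08, 4.83 and 4.61 from 1 h to 5 h. Gpr183, an oxysterol receptor, and Kcnj2, a potassium channel, had means of 24.9 and 113 CPM at 0 h and of 32.0 and 158 CPM at 1 h, without overlap, and then fell by 4.81 and 4.58.

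Over the called genes, changes in the first hour were small by their median. The median log2 change from 0 h to 1 h was -0.02 over the genes that then fell (25th to 75th percentile -0.24 to 0.22, 95th percentile 1.53) and 0.11 over those that then rose (25th to 75th percentile -0.16 to 0.41, 95th percentile 1.88). From 0 h to 5 h the medians were -1.67 and 2.08. These changes share the 1 h or the 5 h libraries with the calls, and are given as values alone.

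Resting macrophage receptors and regulators rose in 2 of 25 and fell in 7, beside 14.1% and 16.2% of all tested genes, with a median of -0.22. With library totals 0 rose and 9 fell, beside 1088 and 3325 of all 11286 genes. Cebpa, a lineage factor of myeloid cells, fell from 55.4, 62.5, 53.4 and 45.8 CPM to 3.64, 2.69, 3.99 and 2.71 CPM (-4.05 ± 0.18 SE, adjusted p = 7.0e-19). At 18 h it stood at 38.4 CPM, against 82.8 CPM before LPS. Csf1r, the receptor of the growth factor CSF-1, was not called (-0.55 ± 0.13 SE), although it was at -1.04 with library totals. Itga4, an integrin subunit, rose by 1.46 with TMM and by 0.97 with library totals. Apoe, an apolipoprotein, and Cd36, a scavenger receptor, had log2 fold changes of 0.12 and -0.49 and were not called.

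Of 26 DNA replication and mitosis genes, 17 were called lower, none were called higher and 9 were not called, with a median of -1.48. Cdc6, which loads the replicative helicase, went from 10.6, 11.0, 10.7 and 10.6 CPM to 0.455, 0.977, 0.776 and 0.708 CPM (-3.87 ± 0.21 SE, adjusted p = 1.2e-16). Ccna2, which encodes cyclin A, fell from 54.5, 57.9, 65.6 and 67.4 CPM to 25.3, 22.5, 25.3 and 23.6 CPM (-1.34 ± 0.16 SE, adjusted p = 1.3e-08). Pcna, the sliding clamp of the polymerase, overlapped between the times, with 524, 482, 543 and 554 CPM at 1 h and 528, 537, 528 and 481 CPM at 5 h (-0.02 ± 0.07 SE). Cholesterol synthesis genes rose in 5 of 17 and fell in 1 (median 0.18), but in 1 and 3 with library totals, where the median was -0.30, so their balance turned with the scaling. The median of all tested genes with library totals was -0.56. Hmgcs1, which makes the precursor of mevalonate, rose by 1.11 or, with library totals, by 0.62. Dhcr7, a late enzyme of the pathway, kept 44.9% of its 1 h level.

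**Figure D3:**
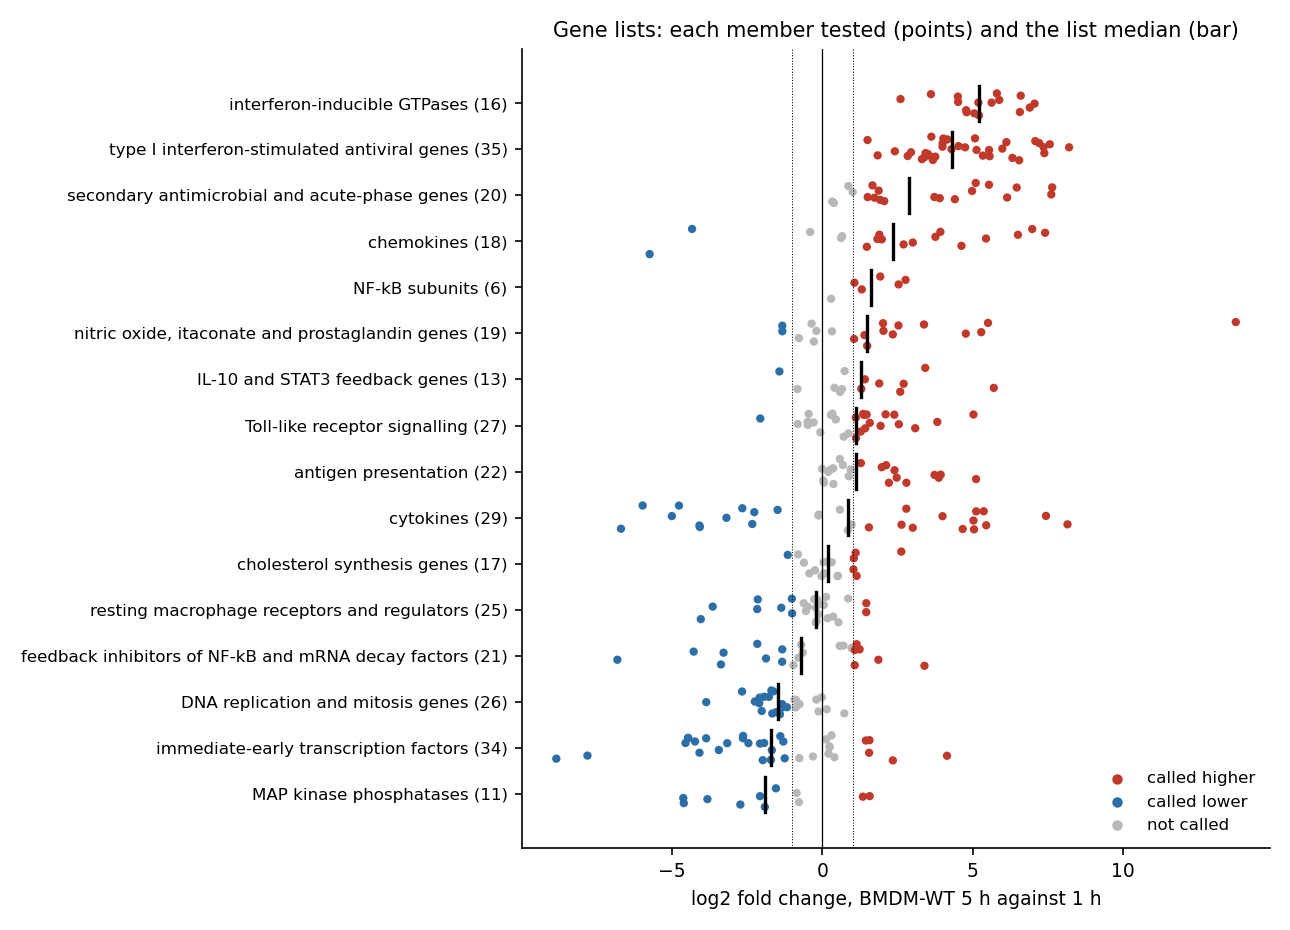
Log2 fold change from 1 h to 5 h in BMDM-WT of every tested member (points) of the 16 gene lists, with the median of each list as a bar and dotted lines at the limits of -1 and 1. The lists of antiviral genes and interferon-inducible GTPases lie wholly above 1, while members of the immediate-early, cytokine and phosphatase lists lie on both sides of 0.

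The RefSeq promoter table, which is not complete, held a window for 80.5% of the genes that rose outside chromosome 18 (1247 of 1550) and for 80.5% of those that fell (1435 of 1782). The ISRE letters GAAANNGAAA stood on either strand in 8.74% of the windows of genes that rose, 2.30% of those that fell, 2.66% of those not called and 3.44% of all 32851 windows of the table. The NF-kB letters GGGANTTTCC were in 0.962%, 0.279%, 0.352% and 0.411% of the same sets, which is only 12 windows of genes that rose and 4 of genes that fell. The AP-1 letters TGANTCA were in 7.70%, 5.23%, 4.46% and 7.81%, and TATAAA in 9.70%, 6.97%, 6.59% and 13.6%. The cyclic AMP response element TGACGTCA was in 3.13%, 3.55%, 3.47% and 1.79%, and the CArG core, the motif of the serum response factor, in 1.44%, 1.05%, 1.20% and 1.63%. A CArG site can itself hold TATAAA, and sites of different motifs can overlap in a window. The ISRE share of genes that rose was above that of the other sets, while for AP-1 it was above the other tested genes and near that of the whole table, which holds many windows of genes not tested. These are shares of letters in a short window, given with no test. For the separate gene lists the table covered too few members (61.1% to 78.6% for the lists of chemokines, GTPases, antiviral genes, early factors and cytokines), so their shares are void.

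**Figure D4:**
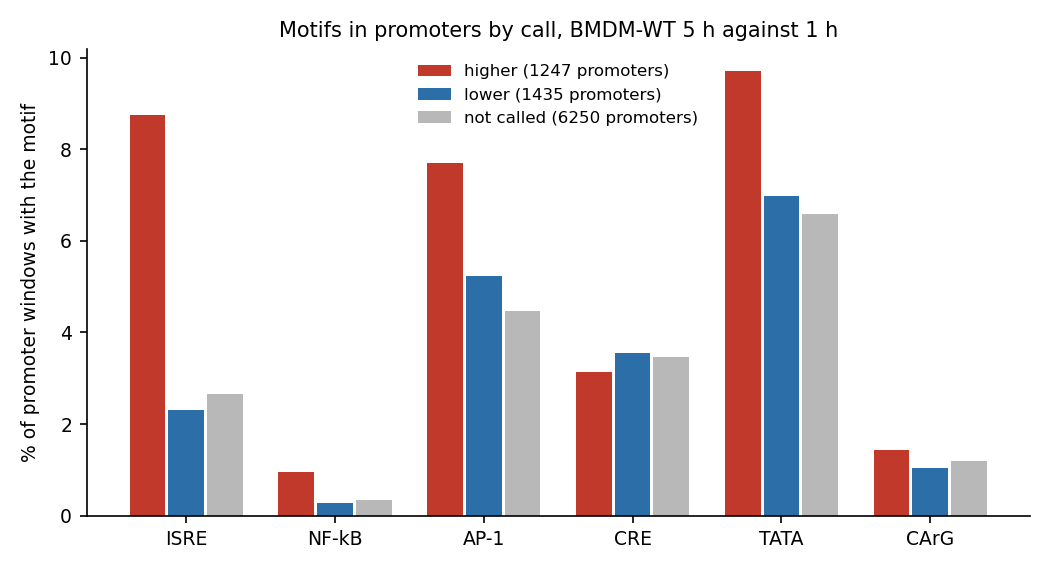
Percent of promoter windows (y axis, from 0) that hold each motif (x axis) on either strand, for genes higher at 5 h, lower at 5 h and not called in BMDM-WT. The ISRE bar of the genes that rose stands at 8.74%, against 2.30% and 2.66% in the other sets.

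Gene structure differed between the lists more than between the calls. Immediate-early factors had a median of 3 exons, a transcript length of 2663 bases and a genomic span of 7.57 kb, and chemokines had 3.5 exons, 1055 bases and 2.92 kb. The antiviral genes had 8 exons, 2695 bases and 14.8 kb. Over all genes that rose the medians were 8 exons, 2956 bases and 24.6 kb, and over those that fell 9 exons, 3113 bases and 26.5 kb, beside 8 exons, 2754 bases and 21.5 kb over all tested genes.

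The change between 0 h and 18 h in BMDM-WT uses none of the 8 libraries. In it, 1482 genes were higher (13.1%) and 1614 lower (14.3%). Of the genes that rose from 1 h to 5 h, 915 were higher at 18 h than at 0 h (57.6% of them and 61.7% of the 1482), and 45 were lower. Of the genes that fell, 732 were lower at 18 h (40.2% of them and 45.4% of the 1614), and 74 were higher. Egr1 was at 6.36 CPM at 18 h, below its level before LPS (116 CPM). Tnf was at 277 CPM, below its 5 h level but above that before LPS (40.6 CPM). Il6, which was highest at 5 h and listed at 0 before LPS, was at 4.10 CPM at 18 h, while Irf7 and Ccl5 stood above their 5 h levels, at 1725 and 4027 CPM.

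BMDM-Nur77-KO gave the same contrast in libraries of its own. There, 1710 genes were higher at 5 h than at 1 h (15.2%) and 1809 lower (16.0%). Of the genes that rose in BMDM-WT, 1388 rose (87.4% of them and 81.2% of the 1710), and of those that fell 1439 fell (78.9% and 79.5% of the 1809), while 0 were called the other way in either set. Without BMDM-Nur77-KO 5 h replicate 1, 1594 genes were higher and 1724 lower, and the shares of the BMDM-WT calls were 89.1% and 80.7%. At 1 h against 0 h, BMDM-Nur77-KO had 364 genes higher (3.23%) and 147 lower (1.30%). Of these 364 genes, 115 (31.6%) fell from 1 h to 5 h in BMDM-WT, which is 6.31% of all genes that fell there, and 144 (39.6%) rose, which is 9.07% of all that rose. At 5 h against 0 h it had 1806 higher (16.0%) and 1876 lower (16.6%), which included 85.6% of the genes that rose in BMDM-WT (75.2% of the 1806) and 76.2% of those that fell (74.0% of the 1876), or 86.5% and 78.6% without replicate 1, where 1691 genes were higher and 1813 lower.

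**Figure D5:**
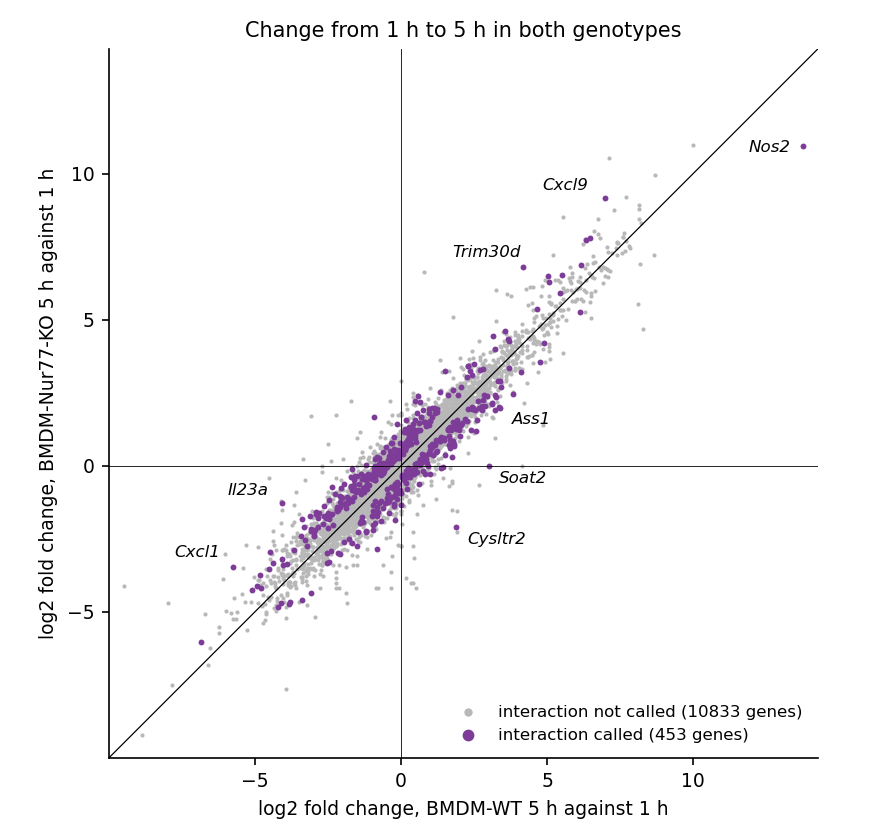
Log2 fold change from 1 h to 5 h in BMDM-WT (x axis) and in BMDM-Nur77-KO (y axis) for the 11286 tested genes, with the 453 genes whose change differed between the genotypes in colour. The points lie along the diagonal, with Trim30d and Il23a above it and Nos2 below it.

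The size of the change differed between genotypes for 453 genes (4.01%) at an adjusted p under 0.05 in the interaction term. This count depended on the fit: it was 776 with DESeq2, 206 with the 16 libraries of both genotypes at 1 h and 5 h alone, and 43 with a replicate block within genotype in these 16. It also depended on single libraries (315 without BMDM-Nur77-KO 5 h replicate 1, 1521 without BMDM-Nur77-KO 5 h replicate 4, 1148 without replicate 3 of the same group, and 275 to 294 without its replicate 2, BMDM-Nur77-KO 1 h replicate 1 or 2, BMDM-WT 1 h replicate 2 or 4, or BMDM-WT 5 h replicate 1 or 2). Trim30d, of the TRIM30 family with close copies, had the smallest p of those described. It went from 25.0, 27.2, 24.2 and 30.0 CPM to 489, 437, 462 and 544 CPM in BMDM-WT and from 3.16, 2.40, 3.98 and 4.64 CPM to 492, 404, 339 and 347 CPM in BMDM-Nur77-KO (difference of the log2 fold changes 2.61 ± 0.22 SE, adjusted p = 2.9e-09). The genotypes lay apart at 1 h and already before LPS, with 15.8 to 21.5 CPM in BMDM-WT and 1.43 to 1.95 CPM in BMDM-Nur77-KO at 0 h, while at 5 h their ranges overlapped. Cxcl1 fell less in BMDM-Nur77-KO, from 240, 215, 205 and 220 CPM to 31.8, 19.1, 15.2 and 13.3 CPM (2.28 ± 0.30 SE, adjusted p = 1.7e-05), and so did Il23a (2.81 ± 0.37 SE, adjusted p = 4.3e-05). Both started lower in BMDM-Nur77-KO at 1 h. Cxcl1 was there at 205 to 240 CPM, against 354 to 419 CPM in BMDM-WT. Il23a was at 3.90 to 6.65 CPM, against 8.14 to 11.1 CPM. Il23a was low at 5 h, at 0.455, 0.733, 0.665 and 0.472 CPM in BMDM-WT and 2.83, 2.34, 2.68 and 1.67 CPM in BMDM-Nur77-KO. DESeq2 gave its interaction no adjusted p. Nos2 rose less, to 781, 933, 976 and 976 CPM at 5 h (-2.80 ± 0.68 SE, adjusted p = 0.016), from 0.171, 0.300, 1.27 and 0.0749 CPM at 1 h. This difference rests on the floor, since every BMDM-WT library held at most 2 counts at 1 h, and on BMDM-Nur77-KO 1 h replicate 3, without which it was -1.54 (adjusted p = 0.23). Ass1 (-1.39) and Sema4c (-1.43), a semaphorin, also rose less. The interaction uses the same BMDM-WT libraries as the calls. Each of these 6 genes remained called without BMDM-Nur77-KO 5 h replicate 1. Trim30d, Cxcl1, Il23a and Ass1 also remained called with the 16 libraries alone and with the replicate block, whereas Nos2 lost the call with both (adjusted p = 0.071 and 0.21) and Sema4c with the block (0.082).

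Among markers of other cell types, only dendritic cell markers were called from 1 h to 5 h. The 10 neutrophil markers summed to 37.4 to 48.3 CPM at 1 h and 39.3 to 55.9 CPM at 5 h, with Ly6g listed at 0 in all 8 libraries. Markers of B cells, T and NK cells, fibroblasts, mast cells and erythroid cells were at most 5.31 CPM in any of the 8 libraries. The 6 dendritic cell markers summed to 3.02 to 4.37 CPM at 1 h and to 13.1 to 19.0 CPM at 5 h, through Xcr1 (2.00 to 2.71 CPM, then 9.97 to 15.5 CPM) and Clec9a (0.334 to 0.632 CPM, then 2.20 to 3.18 CPM). Flt3, Zbtb46, Siglech and Cd209a, the other dendritic markers, were at most 0.638 CPM in the 8 libraries.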

How the data were processed

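RNA was measured by strand-specific, paired-end mRNA-seq in 32 libraries, 4 for each genotype and time. Reads were aligned by the authors to mm10 with HISAT2 2.1.0 (the submitters' processing notes also name CASAVA 1.8.2) and filtered on mapping quality with SAMtools. The deposited values are estimated counts of tags per RefSeq transcript, summed by the authors with HOMER without normalization and without pooling. Since 28.6% of the values were not whole, they were rounded here. A transcript that shares exons with another holds the same reads, so 1 transcript stood for each of 25067 genes, namely the one whose count averaged highest. Transcripts with no gene name held 0.233% to 1.37% of the tags of a library and were left out. Whether counting used strand is not given in the sources used here, so reads of overlapping antisense genes cannot be told apart.

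A gene was tested where any group averaged more than 1 RPKM, which left 11286 genes. They were fitted with edgeR 4.0.16 (R 4.3.3) over all 32 libraries, with TMM factors, 8 group means and the quasi-likelihood test. Calls needed a Benjamini-Hochberg adjusted p under 0.05 together with a change of more than 1 on the log2 scale, and for the interaction the adjusted p alone. CPM values use TMM-scaled library sizes. Alternatives were DESeq2 1.42.0, its size factors, library totals, other filters and limits, every transcript as deposited, the 8 libraries alone, a replicate block and leaving out each library. The fit was checked on simulated counts. Tables and plots were made with Python 3.11.15, pandas 2.3.3 and matplotlib 3.10.9.

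Named genes were those of a fixed panel, the 12 largest rises and falls under the limits given in the text, the largest rise and fall and the 3 highest levels of each gene list, and up to 8 genes each way with the largest interaction. The gene lists and members were chosen with earlier results of these data known. Counts of list members under other scalings, all results without BMDM-Nur77-KO 5 h replicate 1 and the interactions of named genes under other fits were added after seeing the data, as were the comparisons of BMDM-Nur77-KO with 0 h. The results of some genes that the rule names are not reported here, although these genes stay in the list counts.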

Additional observations from a re-analysis of the deposited data

Results flagged for a closer look

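In 11 of the 238 groups of 4 libraries examined for 119 named genes (4.62%), 1 library lay far from the other three by Dixon's test. Chance flags about 1 in 20 groups, here 11.9 of them. At 1 h, the high libraries were replicate 2 for Cxcl11 (1.40 CPM, the others 0.416 to 0.534), Klf6 (1687 CPM, the others 1578 to 1590) and Cdc6 (11.0 CPM, the others 10.6 to 10.7) and replicate 4 for Gm1966 (9.37 CPM, the others 5.62 to 6.24), and replicate 4 was low for Insig1 (107 CPM, the others 118 to 120.4). At 5 h, replicate 2 was low for Irf7 (695 CPM, the others 739 to 745) and high for Mcm6 (148 CPM, the others 134 to 135). Replicate 3 was high for Vcan (238 CPM, the others 193 to 199) and Stat3 (671 CPM, the others 610.2 to 620.1), and replicate 4 was high for Csf2 (0.944 CPM, the others 0 to 0.111) and low for Pcna (481 CPM, the others 528 to 537).

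The change from 1 h to 5 h differed between the genotypes for 31 of the named genes in the interaction test of edgeR, beside 4.01% of all tested genes. Of the 31, 16 were named for the size of their interaction, so the count itself is no result. Values are the log2 fold change of BMDM-Nur77-KO minus that of BMDM-WT. Among genes that rose in BMDM-WT, it was positive for Trim30d (2.61), Cxcl9 (2.17), Gm1966 (1.76), Il6 (1.49), Slc7a2 (1.01), Ptgs2 (0.93) and Cxcl10 (0.48), and negative for Cysltr2 (-4.01), Soat2 (-3.03), Nos2 (-2.80), Slc45a3 (-1.45), Cx3cl1 (-1.44), Sema4c (-1.43), Ass1 (-1.39), Gm10865 (-1.38), Saa3 (-0.87) and Myd88 (-0.63). Among genes that fell in BMDM-WT, it was positive for Il23a (2.81), Cxcl1 (2.28), Trim59 (1.62), Hpgd (1.57), Bora (1.57), Rasgrp3 (1.10), Arhgap19 (0.85), Irs2 (0.82), Zfp36l1 (0.80) and Tnfsf9 (0.59), and negative for Dusp1 (-0.94) and Zfp36 (-0.40). Il1a (0.98) and Il1b (0.65), not called in BMDM-WT, rose in BMDM-Nur77-KO by 1.95 and 1.23. Without BMDM-Nur77-KO 5 h replicate 1, the interaction no longer passed for Soat2 (adjusted p = 0.086), Gm10865 (0.062), Bora (0.059), Hpgd (0.11), Cxcl9 (0.077), Irs2 (0.088), Zfp36 (0.072) and Zfp36l1 (0.12). BMDM-Nur77-KO 1 h replicate 3 lay above the other libraries of its group for Cxcl9 (11.4 CPM, the others 0.341 to 0.899), Gbp4 (12.7 CPM, the others 1.02 to 1.20), Serpina3g (4.06 CPM, the others 0.768 to 1.28), Gbp2 (210 CPM, the others 52.2 to 85.5) and Nos2 (1.27 CPM, the others 0.0749 to 0.300), genes singled out after their values were seen. Without it, the difference was 4.55 for Cxcl9 (adjusted p = 2.1e-07) and -1.54 for Nos2 (adjusted p = 0.23). Leaving out 1 of the 16 libraries at a time kept 19 to 31 of the 31 called, the 16 libraries alone kept 18, the replicate block within genotype kept 8 (Ass1, Cxcl1, Dusp1, Il1a, Il23a, Rasgrp3, Saa3 and Trim30d), and DESeq2 called 24 of the 25 to which it gave an adjusted p. For Cysltr2, Soat2 and Nos2 the difference rests on few counts, with Cysltr2 at 0.109, 0, 0 and 0 CPM in BMDM-Nur77-KO at 5 h.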

How the results depend on the processing

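In BMDM-WT, the counts of genes higher and lower at 5 h stayed within 1.5 times of 1588 and 1823 with DESeq2 (1653 and 1730, of which 1586 and 1727 were called by both tools), with its size factors (1650 and 1732), with other filters (1487 to 1971 and 1719 to 2271) and with the 8 libraries alone (1652 and 1725). Library totals gave 1088 and 3325, a limit of 0.58 gave 2326 and 2975, no limit gave 3254 and 4055, and every transcript as deposited gave 2854 and 3198. Deviations of same-numbered libraries from their group correlated at -0.03, -0.03, 0.09 and 0.15 in BMDM-WT. In BMDM-Nur77-KO they correlated at -0.34, 0.01, -0.19 and -0.13. Differently numbered libraries ran from -0.14 to 0.12 and from -0.15 to 0.30. With so few libraries, these values cannot decide whether the replicate numbers pair them. A replicate block gave 1645 and 1714 in BMDM-WT and 1726 and 1705 in BMDM-Nur77-KO. Leaving out 1 library gave 1566 to 1604 and 1815 to 1835 in BMDM-WT, and 1594 to 1797 and 1724 to 1959 in BMDM-Nur77-KO. The interaction count of 453 was the least stable: 776 with DESeq2, 206 with the 16 libraries of both times, 43 with a replicate block within genotype, and 275 to 1521 when 1 library was left out. The causes were not tested. Of 1950 values of the 122 genes that the naming rule gave, 1917 kept direction and call, 10 lost and 9 gained the call, 14 changed sign while uncalled, and 0 reversed a call. With library totals, Atf3 (-0.09), Irf1 (-0.28), Klf6 (-0.25), Cd14 (-0.16), Nlrp3 (-0.15) and Apoe (-0.37) turned negative. Depth limits the genes near the floor: 67 of the genes that rose had at most 3 counts in every 1 h library and 78 of those that fell had at most 3 in every 5 h library, so their fitted folds are no bounds.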
